A study of Rattus norvegicus with 19 samples.

Results

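The genes described here are Bdnf, Ntrk2, Vgf, Nptx2, Homer1, Inhba, Scg2 and Pcsk1, 8 rat genes for neurotrophins, secreted factors and their partners that are known to respond to neuronal activity. Members were taken as the probe sets whose gene symbol on the platform is one of these names, and where a gene had several, the one with the largest average signal across arrays was used. Of the 8 genes, 6 had a probe set naming them alone, out of 14217 such genes on the array, and all 6 passed the filter on low values (a log2 signal over 4 on at least 2 arrays of a set) in both sets of arrays. Nptx2, a secreted pentraxin of excitatory synapses, and Pcsk1, a protease that cuts prohormones, are not analysed here.

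Each of the 19 arrays held RNA of somatosensory cortex, taken from adult male rats of the Wistar strain. In set 1, the cortex was bathed in artificial cerebrospinal fluid containing 2 mM deoxycholate (DOC, a bile salt used to open the blood-brain barrier), 0.1 mM bovine serum albumin or 10 ng/ml TGF-β1. Samples were taken at 7, 24 or 48 h for DOC and at 8, 24 or 48 h for albumin and TGF-β1, with 1 array per agent and time. All times here are hours after treatment, not the length of the bath. The control was 1 sham-operated array at 24 h. In set 2, all taken at 24 h, 4 rats received albumin together with TGF-β receptor blockers (50 µg/ml of an antibody to TGF-βR2 and 100 µM SB431542, an inhibitor of the TGF-βR1 kinase), 3 received 0.1 mM albumin and 2 were sham-operated. The labels give no albumin concentration for the rats with blockers. No sham rat received blockers, so what the blockers do alone cannot be told apart from an altered response to albumin. Set 1 has 1 array per condition, so its tests rest on an assumption that agent and time add up. It has no sham array at 7, 8 or 48 h. Differences from sham at those times cannot be told apart from changes with time after the operation. The study asked which cortical changes follow barrier opening, albumin or TGF-β1 in tissue that becomes prone to seizures.

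Bdnf encodes brain-derived neurotrophic factor, which is released from neurons and signals through TrkB, the receptor kinase encoded by Ntrk2. Inhba encodes the subunit of activin A, a ligand of the TGF-β family whose type 1 receptors are also inhibited by SB431542. Vgf and Scg2 encode granin-type proteins that are stored in dense-core vesicles and cut into peptides, and Homer1 encodes a scaffold protein of the excitatory synapse. Transcription of Bdnf, Vgf, Scg2, Inhba and a short form of Homer1 is known to follow synaptic activity in rodent neurons, and Bdnf, Vgf and Scg2 are known targets of the transcription factor CREB.

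Values are log2 signals, and 1 unit is a 2-fold difference. The median signal of an array ran from 5.09 to 5.17 in set 1 and from 6.05 to 6.18 in set 2, so levels were compared only within a set. Albumin replicate 2 of set 2 stood apart from its set, correlating with them at a median of 0.981, against 0.992 to 0.996 for the rest of that set, and set 2 differences of the members that it bears on are also given without it. All 13 neuron markers listed, such as Snap25, Syt1 and Camk2a, passed the filter in both sets. In whole cortex, fewer cells of a type and less RNA per cell cannot be told apart.

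The promoters of 3 of these genes are shown first because they carry a motif known to bind CREB-family factors or part of it. Bdnf and Vgf stood high on both DOC at 24 h and albumin replicate 2. Scg2 stood high on albumin replicate 2 only, ranking 792 of 10018 genes on DOC at 24 h. In the RefSeq windows of 300 bases (250 before to 50 after an annotated start, rat build GRCr8), the cyclic AMP response element TGACGTCA, which reads the same on both strands, was found in 612 of 33469 windows (1.83%). It was present in the Scg2 window, 123 bases upstream of the start, and in the Vgf window, 90 bases upstream. Its half-site TGACG, searched on both strands and contained in the full element, was in 21.2% of all windows and in 4 of the 11 windows available for these genes, among them 1 of the 6 Bdnf windows, where it lies 35 bases upstream and reads CGTCA, its form on the other strand. The windows read 5′ to 3′ on the gene's strand, with the full element or the half-site in capitals:
Scg2 (chr9:88256817-88257116, minus strand): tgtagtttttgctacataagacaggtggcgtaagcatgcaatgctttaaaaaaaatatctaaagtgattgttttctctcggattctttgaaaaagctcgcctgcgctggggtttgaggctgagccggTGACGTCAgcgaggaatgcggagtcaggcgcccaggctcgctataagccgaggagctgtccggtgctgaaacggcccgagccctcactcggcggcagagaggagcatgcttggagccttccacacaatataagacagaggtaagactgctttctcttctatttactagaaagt
Vgf (chr12:25276971-25277270, minus strand): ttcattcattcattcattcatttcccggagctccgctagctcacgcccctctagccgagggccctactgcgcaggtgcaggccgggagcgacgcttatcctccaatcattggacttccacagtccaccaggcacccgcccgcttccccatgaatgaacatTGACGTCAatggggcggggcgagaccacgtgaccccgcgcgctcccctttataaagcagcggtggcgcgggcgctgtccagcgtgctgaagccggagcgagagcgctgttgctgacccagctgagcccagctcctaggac
Bdnf (chr3:116637608-116637907, plus strand): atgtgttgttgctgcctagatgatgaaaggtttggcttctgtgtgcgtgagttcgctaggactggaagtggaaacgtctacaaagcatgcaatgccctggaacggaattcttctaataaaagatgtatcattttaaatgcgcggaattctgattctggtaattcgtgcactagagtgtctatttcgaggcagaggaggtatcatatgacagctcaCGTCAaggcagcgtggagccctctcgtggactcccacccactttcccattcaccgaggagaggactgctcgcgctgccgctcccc
The Inhba and Homer1 windows held neither motif. Inhba ranked highest of the 6 genes measured, at 12 on DOC at 24 h and 16 on albumin replicate 2. The window of Nptx2, which is not analysed here, held TGACG. Whether these motifs bear on the signals was not tested. The AP-1 motif TGANTCA, searched on both strands, was in 7.33% of all windows and in 1 of the 11, a Bdnf window other than the one printed. Ntrk2 and Pcsk1 had no window. A match describes these letters only.

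None of the 6 genes passed an adjusted p of 0.05 (limma, Benjamini-Hochberg over all genes tested) in any of the 12 comparisons that the design implies, and 10 of the 72 tests of a gene in a comparison had an unadjusted p under 0.05, where 4.3% to 21.4% of all genes had one in a comparison. The smallest adjusted p of the 72 was 0.0596, for Ntrk2 in albumin against sham in set 2. What the arrays showed was high values on few arrays. Inhba, Bdnf and Vgf stood far above sham on DOC at 24 h in set 1 and, together with Scg2, on albumin replicate 2 in set 2. On the log2 scale, Bdnf was 1.86 above sham on DOC at 7 h and 1.77 above at 24 h. Inhba was also 2.18 above on DOC at 7 h, and 2.30 and 2.27 above with albumin at 8 and 48 h. Ntrk2 and Homer1, by the probe set used, lay below sham on all 16 treated arrays. Other probe sets of both genes turned this direction on some arrays: the Homer1 probe set 1370454_at was 6.28-fold above sham on DOC at 24 h and 3.21-fold above on albumin replicate 2.

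**Figure D1:**
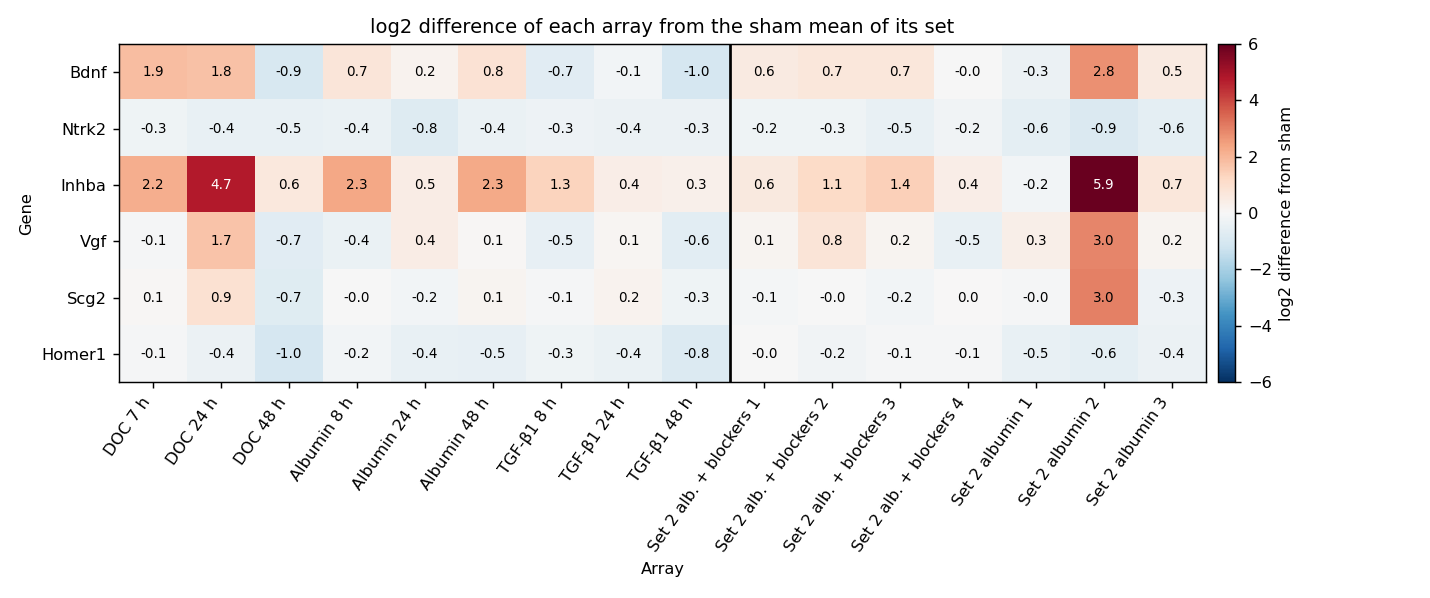
log2 difference of each treated array (columns) from the sham mean of its set for the 6 genes (rows), red above sham and blue below, with set 1 left of the line and set 2 right of it. DOC at 24 h and albumin replicate 2 of set 2 carry the darkest red, up to 5.93 for Inhba, and the Ntrk2 and Homer1 rows, each of 1 probe set, lie below 0 throughout.

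On albumin replicate 2, 4 of the 6 genes were at least 2-fold above the sham mean, against 8.39% of the 10329 genes tested. Inhba was 60.8-fold above sham there and ranked 16 from the top. Scg2 (8.07-fold, rank 109), Vgf (7.74-fold, rank 114) and Bdnf (6.73-fold, rank 131) followed. No member was 2-fold above sham on albumin replicate 1 (3.2% of genes) or replicate 3 (3.99%). On the blocker arrays, only Inhba reached 2-fold, on replicate 2 (2.21-fold, 1.62% of genes) and replicate 3 (2.72-fold, 2.38%), and no member did on replicate 1 (0.842%) or replicate 4 (0.775%).

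On DOC at 24 h, 3 of the 6 genes were at least 2-fold above sham, against 6.39% of the 10018 genes tested in set 1. Inhba was 26.9-fold above sham and ranked 12, Bdnf was 3.41-fold above (rank 220) and Vgf 3.28-fold (rank 236). Scg2 was 0.90 above sham on the log2 scale on that array, its highest value in set 1. The early DOC array had 2 members at least 2-fold above sham, Inhba (4.52-fold) and Bdnf (3.63-fold), with 4.19% of genes, and the DOC array at 48 h had none (5.7%). Inhba alone reached 2-fold with albumin at 8 h (4.92-fold, 3.33% of genes) and 48 h (4.82-fold, 5.95%) and with TGF-β1 at 8 h (2.55-fold, 2.58%). No member did with albumin at 24 h (4.86%) or with TGF-β1 at 24 h (2.66%) or 48 h (5.4%). These are single arrays, so no test belongs to them.

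Bdnf, the neurotrophin, gave log2 signals of 9.98, 9.89 and 7.18 at 7, 24 and 48 h of DOC. With albumin it gave 8.87, 8.35 and 8.97 at 8, 24 and 48 h, and with TGF-β1 7.43, 7.98 and 7.10 at the same times, against 8.12 in the sham array. The albumin arrays all lay above sham, the TGF-β1 arrays all below it, and the DOC arrays on both sides. In set 2, Bdnf gave 8.60, 8.74, 8.74 and 8.04 with albumin plus blockers, 7.71, 10.80 and 8.58 with albumin, and 8.20 and 7.89 in sham. These groups overlapped, and albumin replicate 2 was the highest array.

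Bdnf averaged 9.03 ± 1.59 with albumin (SD, n = 3) and 8.04 ± 0.22 in sham (SD, n = 2), a difference of 0.98 ± 0.75 (SE, limma adjusted p = 0.46). Without albumin replicate 2 that difference was 0.10 ± 0.33 (adjusted p = 0.904). TGF-β1 against DOC gave −1.52 ± 0.60 (adjusted p = 0.219), and this comparison passed the threshold when the DOC array at 48 h was left out (−2.40 ± 0.32, adjusted p = 0.0382). TGF-β1 against albumin in set 1, where the 3 arrays of each agent did not overlap, gave −1.23 ± 0.60 (adjusted p = 0.586).

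Inhba, the activin A subunit, gave 9.80, 12.38 and 8.27 at 7, 24 and 48 h of DOC. Its signals were 9.93, 8.09 and 9.90 at 8, 24 and 48 h of albumin, and 8.98, 8.03 and 7.94 at those times of TGF-β1, against 7.63 in the sham array. All 9 treated arrays of set 1 lay above sham, and the early arrays of all 3 agents did so by 1.35 to 2.30. That sham array was at 24 h, so an early effect of the operation itself cannot be told apart from one of the agents. Inhba ranked 68, 79 and 135 of 10018 genes on those early arrays (DOC, albumin and TGF-β1). In set 2 it gave 8.58, 9.12, 9.42 and 8.38 with albumin plus blockers, 7.80, 13.90 and 8.66 with albumin, and 7.93 and 8.03 in sham.

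The 4 blocker arrays all lay above both sham arrays, while the albumin arrays lay on both sides of them. The blocker group was 0.90 ± 1.44 above sham (SE, adjusted p = 0.9999) and, with albumin replicate 2 left out of the fit, 0.90 ± 0.34 (adjusted p = 0.567). Albumin against sham gave 2.14 ± 1.52 (adjusted p = 0.428) with all arrays and 0.25 ± 0.39 (adjusted p = 0.767) without replicate 2. In set 1, DOC against sham gave 2.52 ± 1.40 (adjusted p = 0.381) and, without the 24 h array, 1.03 ± 0.59 (adjusted p = 0.406). The 24 h arrays against the 7 and 8 h arrays gave −0.07 ± 0.99 with all agents and −1.56 ± 0.45 (adjusted p = 0.306) without DOC at 24 h, so that 1 array set the size of this difference.

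**Figure D2:**
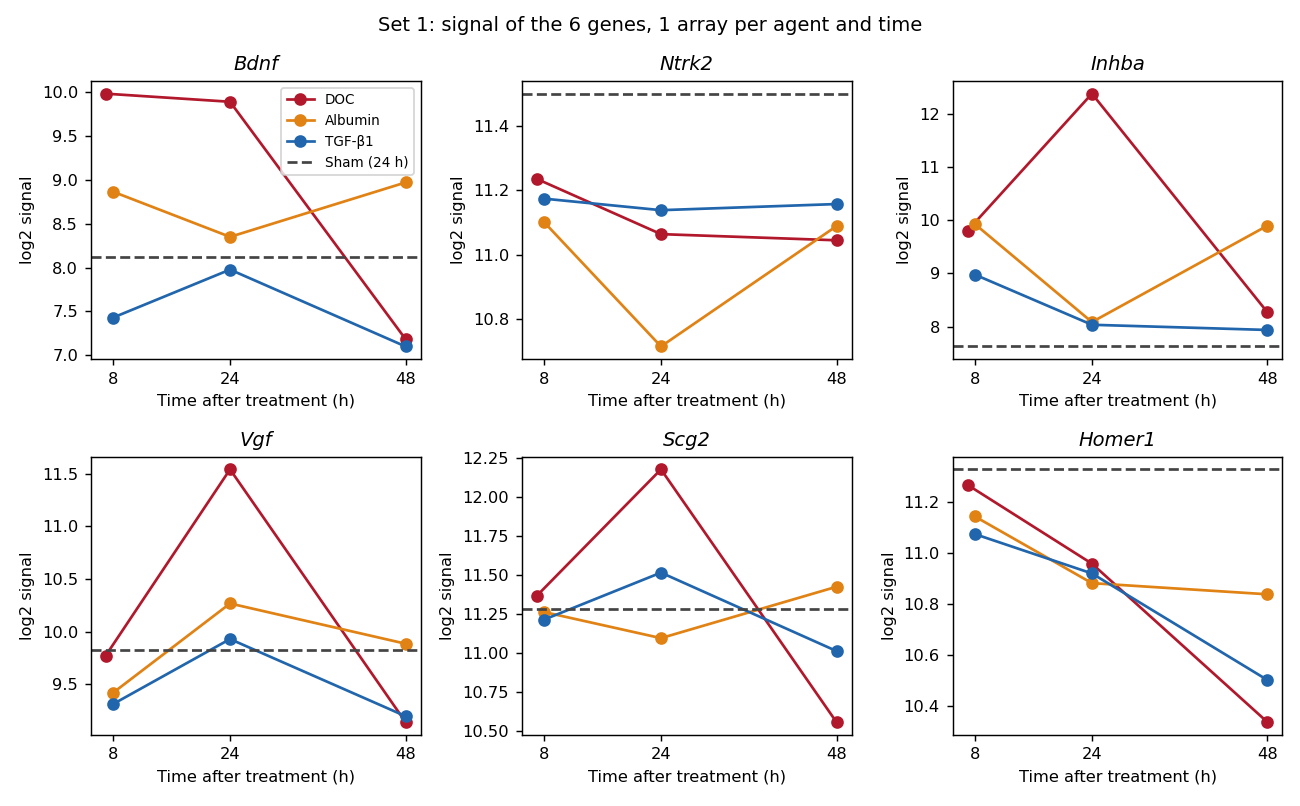
log2 signal (vertical axis) against hours after treatment (horizontal axis) for the 6 genes in set 1, 1 point per array, with DOC, albumin and TGF-β1 as lines and the sham array as a dashed line. Vgf was highest at 24 h with each agent, Homer1 was lowest at 48 h with each agent, and Inhba with DOC peaked at 12.38 at 24 h.

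Vgf, the first of the granin-type genes, gave 9.77, 11.54 and 9.14 at 7, 24 and 48 h of DOC. With albumin the signals were 9.42, 10.27 and 9.89 at 8, 24 and 48 h, and with TGF-β1 they were 9.31, 9.93 and 9.20, against 9.83 in the sham array. With each agent the 24 h array was the highest of its 3, and of the arrays at other times only albumin at 48 h lay above sham, by 0.06. The 24 h arrays did not overlap with the 7 and 8 h arrays or with the 48 h arrays.

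Across agents, Vgf differed by 1.08 ± 0.36 between 24 h and 7 or 8 h (adjusted p = 0.256) and by −1.17 ± 0.36 between 48 h and 24 h (adjusted p = 0.184). Without DOC at 24 h these were 0.60 ± 0.25 (adjusted p = 0.448) and −0.69 ± 0.25 (adjusted p = 0.349). In set 2, Vgf gave 11.12, 11.76, 11.15 and 10.52 with albumin plus blockers, 11.32, 13.93 and 11.15 with albumin, and 11.10 and 10.86 in sham. The albumin arrays all lay above sham, with a difference of 1.15 ± 0.76 (adjusted p = 0.404) that was 0.25 ± 0.34 (adjusted p = 0.731) without replicate 2.

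Scg2, which encodes the precursor of secretoneurin, gave 11.37, 12.18 and 10.56 at 7, 24 and 48 h of DOC. Its signals were 11.26, 11.10 and 11.42 at 8, 24 and 48 h of albumin and 11.21, 11.52 and 11.01 with TGF-β1, against 11.28 in the sham array. Apart from the DOC arrays at 24 and 48 h, these values stayed within 0.27 of sham. In set 2 it gave 11.86, 11.97, 11.81 and 11.99 with albumin plus blockers, 11.94, 15.00 and 11.66 with albumin, and 11.995 and 11.977 in sham. The 8 arrays other than albumin replicate 2 spanned 11.66 to 11.995, and replicate 2 was 3.01 above the sham mean. The sign of albumin against sham turned with that array, being 0.88 ± 0.84 (adjusted p = 0.55) with it and −0.19 ± 0.12 (adjusted p = 0.416) without it.

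**Figure D3:**
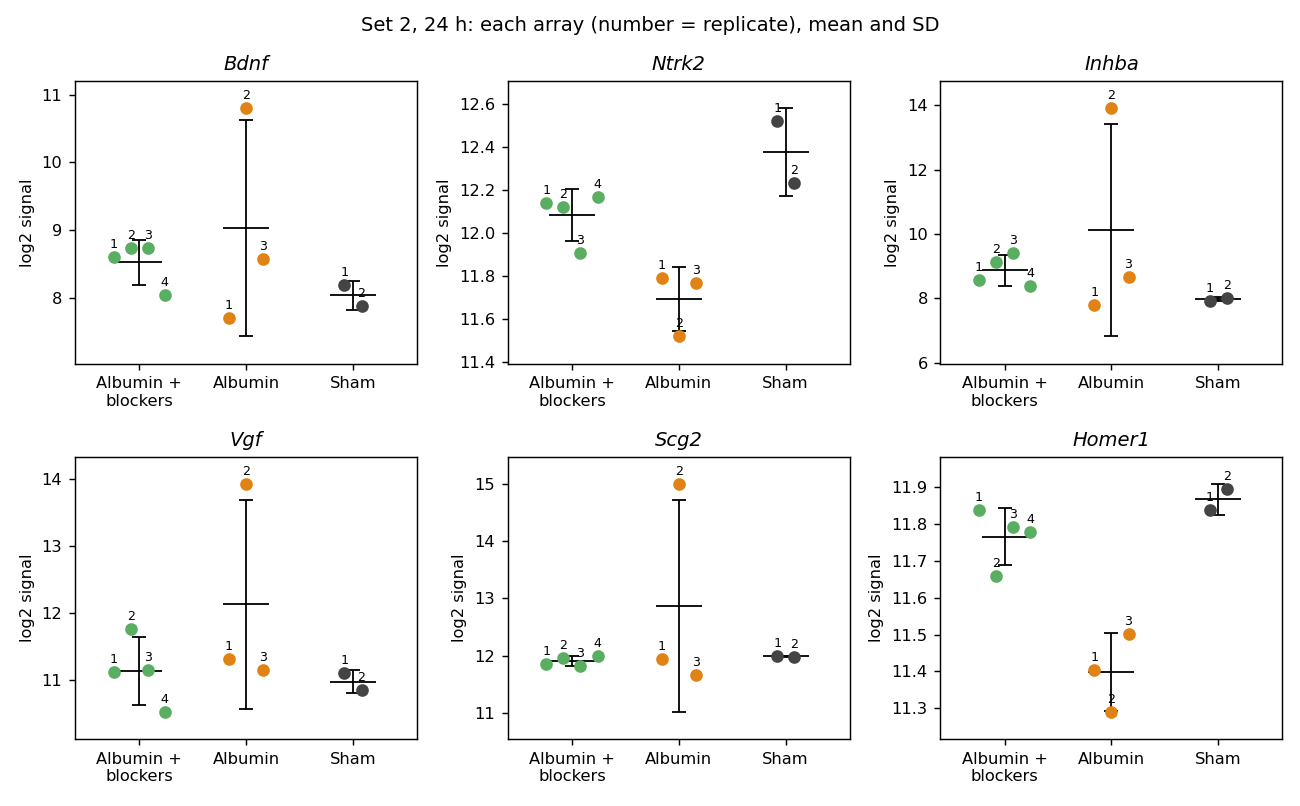
log2 signal (vertical axis) of each set 2 array at 24 h for the 6 genes, with albumin plus blockers, albumin and sham from left to right, replicate numbers beside the points, horizontal lines at the means and bars of 1 SD. Albumin replicate 2 lies far above the other arrays for Bdnf, Inhba, Vgf and Scg2, and all 3 albumin arrays lie below the other groups for Ntrk2 and Homer1.

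Ntrk2, the receptor for Bdnf, behaved otherwise. Its signals in set 1 were 11.24, 11.06 and 11.05 at 7, 24 and 48 h of DOC. They were 11.10, 10.72 and 11.09 at 8, 24 and 48 h of albumin and 11.17, 11.14 and 11.16 with TGF-β1, against 11.50 in the sham array, the highest array. In set 2 Ntrk2 gave 12.14, 12.12, 11.91 and 12.17 with albumin plus blockers, 11.79, 11.52 and 11.77 with albumin, and 12.52 and 12.23 in sham. The 3 groups did not overlap, with albumin lowest and sham highest.

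Ntrk2 averaged 12.08 ± 0.12 with albumin plus blockers (SD, n = 4), 11.69 ± 0.15 with albumin (SD, n = 3) and 12.38 ± 0.20 in sham (SD, n = 2). Albumin against sham was −0.68 ± 0.14 (adjusted p = 0.0596), blockers against albumin 0.39 ± 0.12 (adjusted p = 0.198) and blockers against sham −0.29 ± 0.13 (adjusted p = 0.9999). Without albumin replicate 2, albumin against sham was −0.60 ± 0.13 (adjusted p = 0.0719). In set 1 the differences from sham were −0.38 ± 0.18 with DOC, −0.53 ± 0.18 with albumin and −0.34 ± 0.18 with TGF-β1, with adjusted p of 0.306, 0.306 and 0.80.

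Homer1, the synaptic scaffold, gave 11.27, 10.96 and 10.34 at 7, 24 and 48 h of DOC. With albumin it gave 11.14, 10.88 and 10.84 at 8, 24 and 48 h, and with TGF-β1 11.07, 10.92 and 10.50, against 11.33 in the sham array. With each agent the signal was lower at each later time, and the 3 times did not overlap. The 48 h arrays differed from the 7 and 8 h arrays by −0.60 ± 0.15 (adjusted p = 0.074) and from the 24 h arrays by −0.36 ± 0.15 (adjusted p = 0.301).

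In set 2 Homer1 gave 11.84, 11.66, 11.79 and 11.78 with albumin plus blockers, 11.40, 11.29 and 11.50 with albumin, and 11.84 and 11.90 in sham. The albumin arrays lay below every array of the other groups. Albumin against sham was −0.47 ± 0.10 (adjusted p = 0.0671; 0.0767 without replicate 2), blockers against albumin 0.37 ± 0.09 (adjusted p = 0.147; 0.196 without replicate 2) and blockers against sham −0.10 ± 0.10 (adjusted p = 0.9999). The meningeal markers, 11 genes such as Ptgds and Ogn, moved with these set 2 groups as well. Their mean log2 difference from sham was −1.51 to −0.37 on the blocker arrays and −3.09 to −1.95 on the albumin arrays. The 9 astrocyte markers had a median of −0.30 in albumin against sham (3 above 0) and 0.18 in blockers against albumin (6 above 0). The part of both lists in the Ntrk2 and Homer1 values was not tested.

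Blockers against albumin rested on albumin replicate 2 for the 4 secreted factors. With all arrays the differences were −0.50 ± 0.63 for Bdnf, −1.24 ± 1.27 for Inhba, −0.96 ± 0.70 for Scg2 and −0.99 ± 0.64 for Vgf (adjusted p = 0.683, 0.606, 0.479 and 0.429). Without replicate 2 they were 0.39 ± 0.29, 0.65 ± 0.34, 0.11 ± 0.10 and −0.09 ± 0.30, with the sign turned for Bdnf, Inhba and Scg2 and no difference past the threshold. For Ntrk2 and Homer1 the sign stayed, at 0.30 ± 0.11 (adjusted p = 0.323) and 0.31 ± 0.08.

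Ntrk2 and Homer1 are each read by 5 probe sets, and these did not move alike. For Ntrk2, the differences between albumin and sham in set 2 were −0.18, −0.07 and 0.08 on the other 3 probe sets that passed the filter. Their adjusted p by limma were 0.589, 0.949 and 0.79. No other probe set of Ntrk2 thus gave a difference as large as that of the probe set used. For Homer1, the probe sets 1370656_a_at and 1368319_a_at gave −0.33 ± 0.13 (adjusted p = 0.207) and −0.38 ± 0.16 (adjusted p = 0.218), close to the −0.47 of the probe set used, 1368318_at. The other pair, 1370454_at and 1370997_at, varied far more, with a standard deviation of 1.43 and 1.28 over the 19 arrays after the set means were removed, against 0.26 to 0.29 for the first 3.

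The Homer1 probe set 1370454_at gave 11.76, 12.19 and 6.71 at 7, 24 and 48 h of DOC. Its signals were 11.07, 10.56 and 11.02 at 8, 24 and 48 h of albumin and 9.41, 8.75 and 7.14 with TGF-β1, against 9.54 in the sham array. It was thus high where Bdnf was high in set 1, with DOC at 7 and 24 h, and low at 48 h of DOC and TGF-β1, where Bdnf was also lowest. In set 2 it gave 10.18, 10.95, 11.34 and 10.72 with albumin plus blockers, 9.23, 11.89 and 9.71 with albumin, and 10.30 and 10.11 in sham, again with albumin replicate 2 highest. Its largest differences, −2.46 ± 1.004 between 48 h and 7 or 8 h and −2.45 ± 1.004 between TGF-β1 and albumin, had adjusted p of 0.227 and 0.56. Which Homer1 transcript forms these probe sets read is not given in the tables used here.

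**Figure D4:**
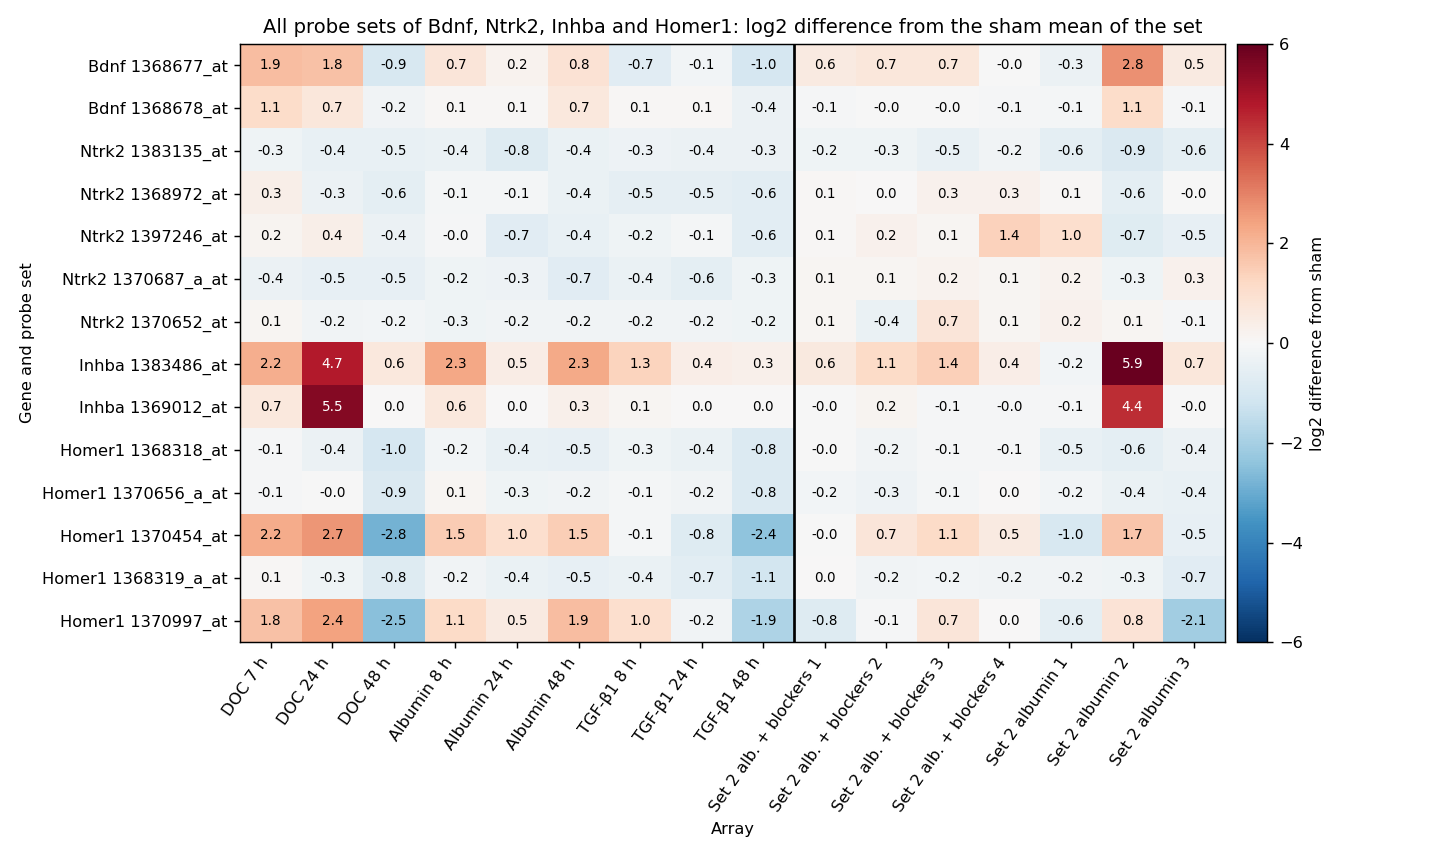
log2 difference from the sham mean of the set for every probe set of Bdnf, Ntrk2, Inhba and Homer1 (rows) on each treated array (columns), red above sham and blue below. The Homer1 probe sets 1370454_at and 1370997_at change sign across arrays, between −2.83 and 2.65, while the other 3 Homer1 probe sets stay within −1.08 and 0.10.

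The second Inhba probe set, 1369012_at, was at 9.74 on DOC at 24 h against 4.23 in the sham array, and between 4.25 and 4.88 on the other treated arrays of set 1. On albumin replicate 2 it was at 6.93, and on the other 8 arrays of set 2 between 2.41 and 2.65. The same 2 arrays were therefore highest on both Inhba probe sets, while the early values of DOC, albumin and TGF-β1 were 0.12 to 0.65 above sham on this one. Apart from those 2 arrays, its signals lay close to or under the filter value of 4. Small differences on it therefore cannot be weighed against those of the probe set used. The second Bdnf probe set was low on all arrays, between 2.40 and 4.62. It was highest on albumin replicate 2 in set 2 (1.08 above sham) and on DOC at 7 h in set 1 (1.10 above).

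By comparison, the members' counts can be read against those of all genes. In set 2, albumin against sham had 0 of 6 members past the threshold (1.33% of all genes) and 2, Ntrk2 and Homer1, at an unadjusted p under 0.05 (21.4% of genes). Vgf was higher and Ntrk2 and Homer1 were lower without overlap, where 22.2% and 19.2% of all genes were. The members' median was 0.93, against 0.02 over all genes. In albumin plus blockers against albumin, 0 of 6 passed (0.0194% of genes) and Ntrk2 and Homer1 had an unadjusted p under 0.05 (16.6%). Both were higher without overlap (7.32% of genes), none was lower (8.71%), and the median was −0.73 against 0.00 over all genes. In albumin plus blockers against sham, 0 of 6 passed by limma and none had an unadjusted p under 0.05, with 0 of 10329 genes called and 4.3% at that unadjusted p, and the median was 0.04. Inhba was higher without overlap (11.6% of genes) and Ntrk2 and Homer1 lower (8.32%), the highest Homer1 blocker array, at 11.8377, lying just under the lowest sham array, at 11.838.

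In set 1, where sham is 1 array and the spread came from an additive model of agent and time, DOC against sham had 0 of 6 members past the threshold by limma (0.469% of genes) and none at an unadjusted p under 0.05 (18.7%). Albumin against sham had 0 of 6 past the threshold (0.369%) and Ntrk2 at an unadjusted p under 0.05 (11.9%). TGF-β1 against sham had 0 of 6 past the threshold (0 of 10018 genes) and none at an unadjusted p under 0.05 (7.49%). Without overlap with the sham array, Inhba was higher and Ntrk2 and Homer1 lower with DOC, where 23.7% and 29.1% of all genes were. With albumin, Bdnf and Inhba were higher (26.9% of genes) and Ntrk2 and Homer1 lower (30.2%). With TGF-β1, Inhba was higher (28.7%) and Bdnf, Ntrk2 and Homer1 lower (24.6%). The members' medians were 0.21, 0.01 and −0.34 for DOC, albumin and TGF-β1, against −0.03, −0.02 and 0.01 over all genes. These 3 comparisons share the single sham array, which was at 24 h, while the arrays of each agent span 3 times.

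Between times, 0 of 6 members passed by limma in 24 h against 7 or 8 h (0.799% of genes), in 48 h against 24 h (1.41%) and in 48 h against 7 or 8 h (5.09%). At an unadjusted p under 0.05 were Vgf in the first (14.1% of genes), Vgf and Homer1 in the second (16.3%) and Homer1 in the third (20.7%). All 6 members had a negative difference between 48 h and 7 or 8 h, with a median of −0.44 against 0.01 over all genes, and the largest was the −1.01 ± 0.60 of Bdnf (adjusted p = 0.398). Without overlap, Vgf was higher (10.3% of genes) and Homer1 lower (7.98%) at 24 h against the early arrays, Vgf and Homer1 were lower and none higher at 48 h against 24 h (7.78% and 10.8%), and Homer1 was lower and none higher at 48 h against the early arrays (9.22% and 14.8%). Between agents, 0 of 6 passed by limma for albumin against DOC (0.00998% of genes), TGF-β1 against DOC (0.0299%) and TGF-β1 against albumin (0 of 10018 genes). At an unadjusted p under 0.05 were none in the first (7.48% of genes), Bdnf in the second (20.8%) and none in the third (8.75%). In TGF-β1 against albumin, Ntrk2 was higher (9.28% of genes) and Bdnf lower (6.58%) without overlap, and no member was higher or lower without overlap in albumin against DOC (4.37% and 3.76%) or in TGF-β1 against DOC (13.3% and 7.01%).

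**Figure D5:**
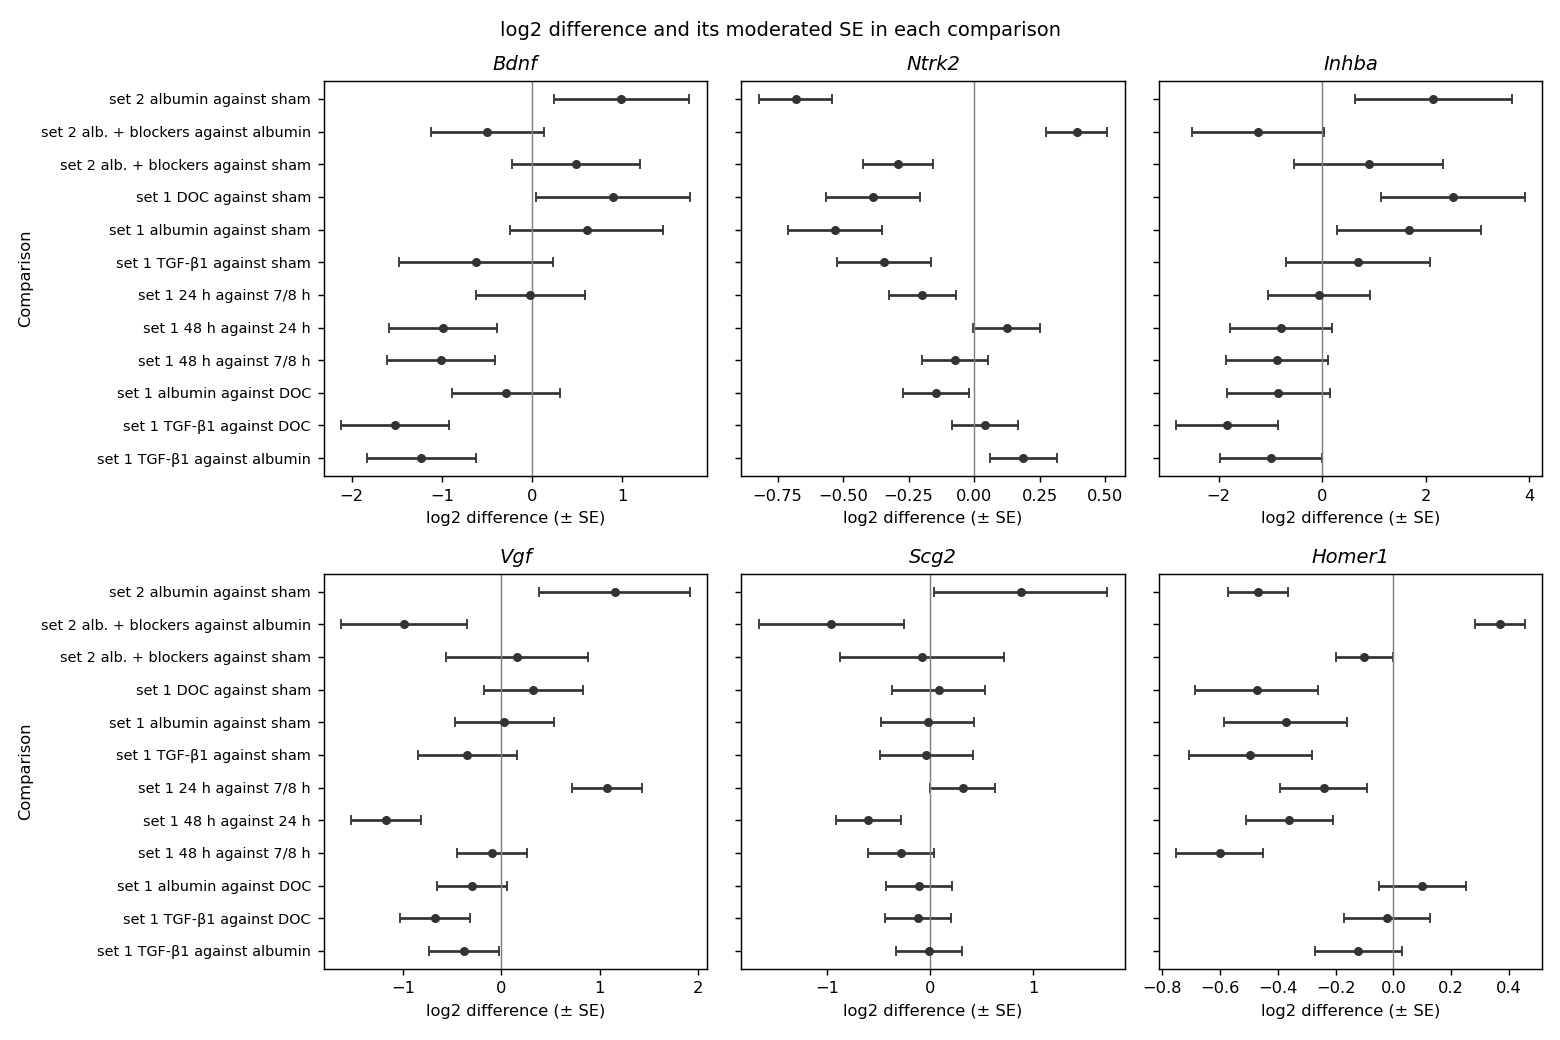
log2 difference with its moderated standard error (horizontal axis) in each of the 12 comparisons (rows) for the 6 genes, with a vertical line at 0. The intervals of Inhba, Vgf and Scg2 in set 2 are several times wider than those of Ntrk2 and Homer1, and no difference passed the threshold.

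After the mean of each set was removed, the members differed in how near they lay to each other over the 19 arrays. Ntrk2 and Homer1 were the closest pair, with a root mean square difference of 0.22, followed by Vgf and Scg2 at 0.38 and Bdnf and Vgf at 0.58. Inhba lay apart, at 0.92 from Bdnf, 1.01 from Vgf and 1.03 from Scg2, which was no nearer than Homer1 was to these 3 (0.92, 0.89 and 0.81). These distances are small partly where genes vary little, since the standard deviations were 0.24 for Ntrk2, 0.26 for Homer1, 0.75 for Scg2, 0.83 for Vgf, 0.95 for Bdnf and 1.62 for Inhba. Inhba alone had a standard deviation over 1. Among 9841 genes, the 3 whose values were most like those of Inhba were Ptgs2, the inducible prostaglandin synthase (0.78), Cbr3, a carbonyl reductase (0.78), and Srxn1, sulfiredoxin (0.80).

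On albumin replicate 2, Ptgs2, Cbr3 and Srxn1 were 3.95, 3.68 and 3.98 above the sham mean. On DOC at 24 h they were 3.01, 4.14 and 3.74 above the sham array. The likeness is a description over arrays that share 2 extreme members.

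Other genes of the same systems were counted in 7 lists of neurotrophin, granin, neuropeptide, synaptic, activin and activity-regulated genes, with 88 genes tested in set 2 and 85 in set 1. In albumin against sham in set 2, 1 of the 88 rose and none fell (1.33% of all genes passed), with 23 at an unadjusted p under 0.05 (21.4% of all genes). The 1 gene was Pnoc, the precursor of nociceptin, at 9.12, 9.85 and 9.22 with albumin against 7.59 and 7.77 in sham, a difference of 1.71 ± 0.32 (adjusted p = 0.049) that held in 1 of 9 fits leaving out 1 array, with adjusted p between 0.0292 and 0.335. Pnoc gave 8.47, 8.58, 8.87 and 7.81 with albumin plus blockers.

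The list of activity-regulated transcription factors, cofactors and related genes, called the transcription factor list below, had 17 genes tested. Its median in albumin against sham of set 2 was the largest of the lists, 1.002, with 13 of 17 above sham. By limma, 0 of its genes passed the threshold and 7 had an unadjusted p under 0.05 (21.4% of all genes). Its mean difference from sham was −0.00, 1.49 and 1.41 on albumin replicates 1, 2 and 3 and −0.25 to 0.14 on the 4 blocker arrays. The median was 1.76 on replicate 2 and 0.97 on replicate 3. At least 2-fold above sham were 10 of the 17 genes on replicate 2 (8.39% of all genes) and 8 on replicate 3 (3.99%). Bdnf, Vgf and Scg2 were at 0.53, 0.17 and −0.32 on replicate 3. The medians of the other lists were 0.11 for neurotrophin ligands and receptors (8 genes), −0.21 for granins and prohormone processing (14), 0.30 for neuropeptides (12), −0.31 for pentraxins, Homers and synaptic partners (11), 0.32 for the activin and inhibin system (11) and 0.62 for other activity-regulated effectors (15).

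In albumin plus blockers against albumin, 0 of 88 passed by limma and 26 had an unadjusted p under 0.05 (0.0194% and 16.6% of all genes). The list medians ran from −0.80, for the transcription factor list, to 0.31. Against sham, 0 of 88 passed in the blocker group by limma and 3 had an unadjusted p under 0.05 (4.3% of all genes). The median of the activin and inhibin list, the partners of Inhba, was −0.29 in blockers against albumin and −0.02 in blockers against sham.

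In set 1, none of 85 list genes passed against sham with DOC, albumin or TGF-β1 by limma, with 24, 17 and 13 at an unadjusted p under 0.05 (18.7%, 11.9% and 7.49% of all genes). The medians of the transcription factor list were −0.62, −0.56 and −0.97 in these comparisons, with 5, 5 and 3 of 16 genes above sham. This direction was opposite to that of albumin against sham in set 2. Pnoc rose at 24 h against 7 or 8 h, with signals of 8.13, 7.74 and 7.91 at 24 h and 6.54, 6.84 and 6.72 at 7 or 8 h (DOC, albumin and TGF-β1), a difference of 1.22 ± 0.17 (adjusted p = 0.0387). It was the only one of 85 to pass there (0.799% of all genes). At 48 h against 7 or 8 h, Shc1, an adaptor protein of receptor kinases such as TrkB, rose by 1.46 ± 0.17 (adjusted p = 0.00655). Crem, a transcription factor that binds the cyclic AMP response element, fell by 0.85 on the log2 scale (SE 0.16, adjusted p = 0.0334), and Cadps2, a dense-core vesicle protein that promotes neurotrophin release, fell by 0.77 (SE 0.16, adjusted p = 0.0438). These 3 were all that passed of 85, where 5.09% of all genes passed, and the median of the transcription factor list was −0.86 there. In 48 h against 24 h and in the 3 comparisons between agents, 0 of 85 passed by limma, with 11, 3, 17 and 12 at an unadjusted p under 0.05 (16.3%, 7.48%, 20.8% and 8.75% of all genes).

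The call for Shc1 held when any 1 array was left out, with adjusted p between 0.00700 and 0.0434. Those for Pnoc at 24 h, Crem and Cadps2 each held in 2 of 9 such fits, with adjusted p up to 0.148, 0.14 and 0.178.

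Microglia and macrophage markers were higher at 48 h in set 1, with a mean of 1.94 to 2.29 above sham on the 3 arrays at 48 h, against −0.11 to 0.41 on those at 7 or 8 h. The neuron markers were at −0.53, −0.39 and −0.11 on the 48 h arrays of DOC, albumin and TGF-β1, and at −0.15, 0.00 and −0.03 on the early ones. Meningeal markers averaged 0.97, 2.47 and 2.43 above sham on the 48 h arrays and 0.29, 1.495 and 0.98 on the early ones, and 4 of 9 rose between these times. Where 5.09% of all genes passed by limma, 3 of 7 endothelium and pericyte markers rose, with a median difference of 0.77. Of the 9 astrocyte markers 2 rose, Vim and Gfap, while the median difference of that list was 0.04, with 5 above 0. Of the microglia and macrophage markers 8 of 10 rose, with a median difference of 1.78. Apart from the astrocyte list, these marker lists moved with the later, lower Homer1 values. The part of any of these lists in those values was not tested. On the 2 arrays where Inhba and Vgf were highest in their set, neuron markers were 0.20 below sham (DOC at 24 h) and 0.22 below sham (albumin replicate 2) on average, with single markers from −1.87 to 0.77 and from −0.85 to 1.19, and their part in those signals was not tested.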

How the data were processed

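Cortical RNA was measured on Affymetrix rat RG230 2.0 arrays. The submitters' processing notes name GCRMA, and the deposited values are the log2 signals it gave the authors. Its version is not given in the sources used here. Whether both sets were normalised together is not stated, and array medians differ between them, so differences were taken within a set. Of 31099 probe sets, 20826 name 1 gene in the platform's annotation, 436 several and 9780 none, besides 57 controls. Symbols were updated through RefSeq for 20758 by gene ID and 2 by accession, and 66 kept the platform's symbol. Nptx2 and Pcsk1 are not analysed here.

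Genes over a log2 signal of 4 on at least 2 arrays of a set were tested, 10018 in set 1 and 10329 in set 2. limma (3.58.1, R 4.3.3) was fitted across all genes with lmFit and eBayes, with Benjamini-Hochberg adjustment and a threshold of 0.05. Set 2 had 3 groups, and set 1 a model adding agent and time, in which the lone sham array is assumed to vary like the others. Replicates of set 2 are separate animals, so precision is limited by their number. The members, lists and tests were chosen with earlier results of these data known. All members are named, with the 3 genes nearest to any member whose standard deviation exceeds 1, and up to 3 genes per list past the threshold. Alternatives were the choice of probe set, filter, centring, prior, samples fitted, replicate block and leaving out each array. The fits were checked on simulated data. Tables were made with pandas 2.3.3 and numpy 2.4.6 under Python 3.11.15, and plots with matplotlib 3.10.9.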

Additional observations from a re-analysis of the deposited data

Results flagged for a closer look

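A Ntrk2 probe set other than the one used, 1397246_at, was at 10.91 on blocker replicate 4, far from the other 3 blocker arrays, whose lowest was 9.61. The gap to its nearest neighbour was 0.879 of the range of the group. A second Homer1 probe set, 1368319_a_at, was at 9.25 on blocker replicate 1, where the lowest of the group was 9.04 and the gap was 0.832 of the range. These were 2 of 16 groups of 4 arrays examined in this way, and chance alone marks such a group with a probability of about 0.05. Neither is the probe set on which the results of its gene rest.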

How the results depend on the processing

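Under 27 settings, 1227 values of the members were recomputed. Of these, 1139 kept their sign and their side of the threshold, 5 kept their sign and passed the threshold, 58 changed sign from a value within its standard error and 25 from a larger one. The count of members called went to 1 (Homer1, −0.53, adjusted p = 0.041) for DOC against sham and to 2 for albumin against sham in set 1 (Homer1, −0.45, and Ntrk2, −0.56) when all 19 arrays were fitted with a set term. It went to 1 (Homer1, adjusted p = 0.0365) for 48 h against 7 or 8 h with a trended, robust prior. Leaving out 1 array gave 0 to 1 called members in TGF-β1 against DOC.

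Of the 25 larger changes of sign, 23 came from another choice of probe set and 2 from leaving out an array. Ntrk2 in blockers against sham was 0.46 with the most variable probe set (1397246_at), 0.12 with the mean of all, 0.15 with 1368972_at and 0.14 with 1370687_a_at. Ntrk2 with 1370687_a_at was 0.081 in albumin against sham of set 2 and 0.0344 in albumin against DOC. Ntrk2 in DOC against sham was 0.0569 with 1397246_at, the most variable, and in TGF-β1 against albumin it was −0.0217 with the mean, −0.35 with 1368972_at and −0.0138 with 1370687_a_at. Homer1 in DOC against sham was 0.68 with the most variable (1370454_at), 0.56 with 1370997_at and 0.0241 with the mean. In albumin against sham of set 1 these 3 choices gave 1.34, 1.19 and 0.33. Homer1 with 1370454_at was 0.0706 in albumin and 0.59 in blockers against sham of set 2, the last being 0.036 with the mean. Leaving out 1 array of set 2, Scg2 ran from −0.19 to 1.48 in albumin against sham and from −1.56 to 0.11 in blockers against albumin, both signs turning without albumin replicate 2. The causes were not tested.

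Over single left-out arrays and all other settings, genes called ranged from 1 to 191 in albumin against sham of set 2 (137 as reported), 0 to 28 in blockers against albumin (2), 0 to 2 in blockers against sham (0), 1 to 526 in DOC against sham (47), 2 to 597 in albumin against sham of set 1 (37), 0 to 11 in TGF-β1 against sham (0), 0 to 129 in 24 h against 7 or 8 h (80), 35 to 173 in 48 h against 24 h (141), 166 to 620 in 48 h against 7 or 8 h (510) and 1 to 179 in TGF-β1 against DOC (3). Same-numbered arrays of set 2 did not deviate together (correlations −0.136 to 0.223), and with the replicate block 0 members were called in each of its 3 comparisons. Signals under about 4 on the log2 scale are near the floor of these arrays. Such were those of the second Bdnf probe set on most arrays, and of the second Inhba probe set in set 2 outside albumin replicate 2.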
